A study of Mus musculus with 8 samples.

Results

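The 38 *Hox* genes listed for mouse clusters *Hoxa*, *Hoxb*, *Hoxc* and *Hoxd* were described across 8 wild-type embryos at E8.5. A gene was included where the accession of an array probe named it in a RefSeq table, which gave 41 of the 55681 different probes. The list holds 10 *Hoxa*, 10 *Hoxb*, 9 *Hoxc* and 9 *Hoxd* genes. The embryos were all *Eed* wt/wt on a C57bl6/129 background and had wild-type mothers. The mothers' mates were *Eed* wt/wt (WT father, embryos 1 to 4) or heterozygous for the hypomorphic allele Eedl7Rn5-1989SB, written hypo/wt, (HET father, embryos 1 to 4). Each embryo was labelled with a single dye on an array of its own, and each group held 2 females and 2 males.

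*Hox* genes encode homeodomain transcription factors that give cells their position along the head-to-tail axis. Within a cluster, genes of low paralogue number are switched on early and reach far forward into the hindbrain, whereas genes of high number are switched on later and mark the growing tail and the limbs. The Polycomb complex PRC2, of which EED is a core subunit, marks silent *Hox* genes with trimethylated H3K27 and helps to keep them off outside their domains.

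Signals are given as log2 intensities on which 0 is the 75th percentile of the array. They can be compared between embryos for the same probe but not between genes. A gene with more than 1 probe was read through its brightest tested one. Testing required a probe well above background on 4 or more arrays and outside the lowest 20% of signals, and 34 of the 38 genes passed. The same filter left 33093 probes for the fit. Since whole embryos were measured, fewer cells of a type and less RNA per cell cannot be told apart. The limma p-values measure the spread between these embryos, and 3 of the WT father embryos share the first part of their code. Each father group was hybridised on a slide of its own, and the slide and the genotype of the father cannot be told apart.

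Between 29203 and 39530 probes stood well above background on an array. WT father embryo 1 (39530) and HET father embryo 3 (38878) had the most, and dim probes read high on both. Over the 6619 dimmest tested probes, the median difference from the probe's own mean was 0.46 in WT father embryo 1 and 0.95 in HET father embryo 3, against -0.48 to 0.11 in the other embryos. HET father embryo 4 had a median negative control signal of 156 intensity units before background was subtracted, against 43 to 53 elsewhere. Its median local background was 133, against 30 to 51 elsewhere.

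The anterior and central *Hox* genes were measured in every embryo, while the posterior end of the clusters was only partly above background. Of the 38 genes, 31 stood well above background on all 8 arrays. These were all 7 genes of paralogue groups 1 to 3, 14 of the 15 of groups 4 to 8, and 10 of the 16 of groups 9 to 13. *Hoxa6* and *Hoxa13* were above background on 7 arrays and *Hoxd11* on 5. *Hoxc12* was above it on 3 and was not tested. *Hoxb13*, *Hoxc13* and *Hoxd12*, 3 of the most posterior genes, were not well above background on any array. The number of *Hox* genes above background in an embryo lay between 32 and 35.

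The *Hox* genes also differed in how far embryos of the same group lay apart. The SD within father groups had a median of 0.14 for groups 1 to 3 (range 0.09 to 0.20, 7 genes), 0.22 for groups 4 to 8 (0.05 to 1.32, 15 genes) and 0.60 for groups 9 to 13 (0.11 to 1.32, 12 genes). The median over all 33093 probes was 0.21. That median takes no account of brightness. The SD exceeded the median of tested probes in the same decile of brightness for 4 of 7, 12 of 15 and 10 of 12 genes. After quantile normalization the medians of the 3 bands were 0.15, 0.28 and 0.69. Without WT father embryo 1 and HET father embryo 3 they were 0.14, 0.18 and 0.52. The posterior probes include many of the dimmest, and the part of signal strength in this order was not tested.

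**Figure D1:**
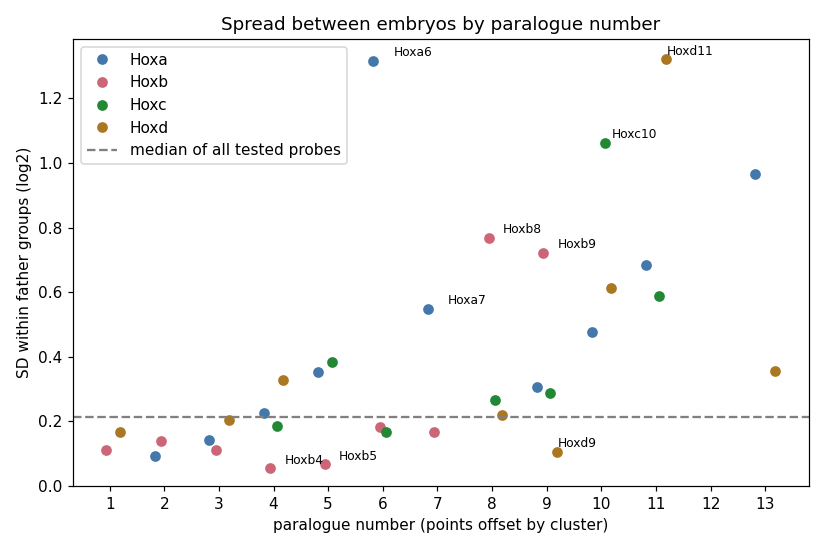
Pooled SD within father groups (y axis, log2 units) against paralogue number (x axis) for the 34 tested *Hox* genes, coloured by cluster; the dashed line is the median of all tested probes, 0.21. Genes of groups 1 to 3 all lie at or below 0.20, and *Hoxa6* and *Hoxd11* lie highest at 1.32.

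The steadiest member was *Hoxb4*, a hindbrain and spinal cord regulator also known for its role in blood stem cells. Its signal was 1.83, 1.87, 1.82 and 1.90 in the WT father embryos and 1.98, 1.90, 1.87 and 1.82 in the HET father embryos. The highest and lowest embryos were 1.12-fold apart, and the groups overlapped. *Hoxb1*, the marker of rhombomere 4, and *Hoxa2*, which patterns the second pharyngeal arch, had SDs of 0.11 and 0.09.

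*Hoxa7*, *Hoxb8* and *Hoxb9*, genes of the trunk, were bright and yet varied widely from embryo to embryo. *Hoxb8* was 2.08, 1.95, 1.31 and 2.90 in the WT father embryos and 3.34, 1.25, 2.50 and 2.09 in the HET father embryos, a range of 4.26-fold. *Hoxb9* was 2.92, 2.66, 2.00 and 3.75 in the WT father embryos and 2.35, 1.99, 3.66 and 2.48 in the HET father embryos, a range of 3.38-fold. *Hoxa7* was 3.31, 3.15, 2.30 and 3.45 in the WT father embryos and 3.61, 2.49, 2.72 and 2.31 in the HET father embryos, a range of 2.48-fold. WT father embryo 3 and HET father embryo 2 were low for all of them, and WT father embryo 4 was high for all. HET father embryo 1 had the highest *Hoxa7* and *Hoxb8*, 0.69 and 1.16 above the genes' own means, but its *Hoxb9* lay 0.38 below the mean. Of the tested probes in the same decile of brightness, 99.4% had a smaller SD than *Hoxb8*, 99.2% a smaller SD than *Hoxb9* and 98.6% a smaller SD than *Hoxa7*. For these bright probes the deviations under quantile normalization were close to those above (1.16 for *Hoxb8* and 0.68 for *Hoxa7* in HET father embryo 1).

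The promoter windows of *Hoxa7* and *Hoxb8*, bright genes of wide spread, and of *Hoxb4*, the gene of the narrowest spread, are shown as 300 bases each, from 250 before to 50 after the gene start, read along the gene's strand from RefSeq on GRCm38.p6. Capitals mark TTTATG or its reverse complement CATAAA, letters that caudal-type (CDX) homeodomain proteins are known to bind. The *Hoxa7* window lies at chr6:52218524-52218823 on the minus strand, the *Hoxb8* window at chr11:96281655-96281954 on the plus strand and the *Hoxb4* window at chr11:96318017-96318316 on the plus strand.
Hoxa7: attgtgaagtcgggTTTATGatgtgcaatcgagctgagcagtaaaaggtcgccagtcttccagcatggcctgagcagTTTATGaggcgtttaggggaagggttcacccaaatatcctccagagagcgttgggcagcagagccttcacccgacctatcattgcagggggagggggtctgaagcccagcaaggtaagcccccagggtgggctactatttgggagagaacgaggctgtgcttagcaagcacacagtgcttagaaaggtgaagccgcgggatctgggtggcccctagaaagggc
Hoxb8: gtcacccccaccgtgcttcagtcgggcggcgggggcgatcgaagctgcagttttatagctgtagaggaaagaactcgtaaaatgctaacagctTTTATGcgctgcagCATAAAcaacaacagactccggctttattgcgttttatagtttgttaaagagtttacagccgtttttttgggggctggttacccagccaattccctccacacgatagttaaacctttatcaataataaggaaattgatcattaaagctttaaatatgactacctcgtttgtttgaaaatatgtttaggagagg
Hoxb4: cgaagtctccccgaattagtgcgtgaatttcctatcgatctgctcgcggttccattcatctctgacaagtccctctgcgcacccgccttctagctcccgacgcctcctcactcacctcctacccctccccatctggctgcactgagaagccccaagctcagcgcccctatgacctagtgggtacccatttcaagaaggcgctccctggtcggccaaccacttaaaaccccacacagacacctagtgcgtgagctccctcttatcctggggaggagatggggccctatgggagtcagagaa
The *Hoxa7* and *Hoxb8* windows each hold 2 copies of the letters and the *Hoxb4* window none. The table holds 24 windows for 22 of the 38 genes, and 5 windows have the letters on either strand (*Hoxa7*, *Hoxb8*, *Hoxd3*, *Hoxd4* and *Hoxd11*), or 20.8%, against 11.9% of all 32851 windows. *Hoxd3* had an SD of 0.20 and *Hoxd4* of 0.33, against medians of 0.18 and 0.11 for tested probes in the same deciles of brightness. The SD exceeded the median of its decile for all 5 genes with the letters, as it did for most tested *Hox* genes. A link between the letters and the spread was not tested. AGGTCA, a half-site of retinoic acid receptors, or its reverse complement TGACCT was in 7 windows (29.2%), among them *Hoxb4*, against 16.3% of all. A window of a *Hox* gene held a median of 14.5 CG dinucleotides (range 4 to 45, highest at *Hoxa13*), and the median over all windows was 7. These matches describe the letters and were not tested for binding.

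**Figure D2:**
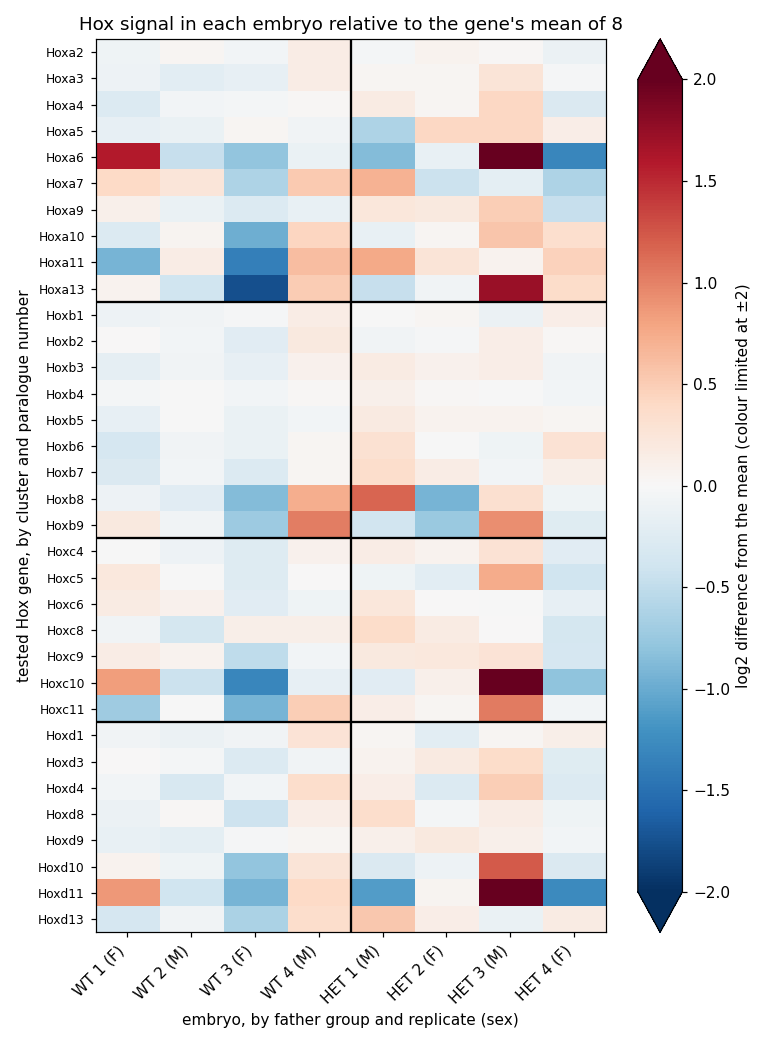
Signal of the 34 tested *Hox* genes (rows, by cluster and paralogue number) in the 8 embryos (columns), as the log2 difference from the gene's mean of 8. Red is above and blue below the mean, WT father embryo 3 is low and HET father embryo 3 high at most genes of groups 9 to 13, and *Hoxb8* and *Hoxb9* part in HET father embryo 1.

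WT father embryo 3, a female singled out after its values were seen, had the lowest signal of the 8 for 15 of the 34 tested *Hox* genes, including 8 of the 12 in groups 9 to 13. Among tested probes of the same brightness deciles it was lowest for 9.94%. Its median difference from the genes' own means was -0.16 for groups 1 to 3, -0.23 for groups 4 to 8 and -0.86 for groups 9 to 13, whereas over the dimmest tested probes it was -0.19. Under quantile normalization it was lowest for 5 of the 12 posterior genes and for 6.41% of the probes of those deciles, and its posterior median was -0.53. Its mean over 9 markers of the tail bud and presomitic mesoderm lay 0.04 below the mean of 8, within the range of the other embryos (-0.22 to 0.26).

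HET father embryo 3, a male, had the highest signal for 8 of the 12 posterior genes, with a median difference of 0.74 from the genes' own means. It was also highest for 40.4% of the tested probes of those brightness deciles. Under quantile normalization it was highest for 5 of the 12, against 19.2% of the probes, its median difference fell to 0.26, and 4 of the 12 lay below their means (*Hoxa11*, *Hoxc11*, *Hoxd9* and *Hoxd13*). *Hoxd11*, above background on 5 arrays, and *Hoxc10*, a gene of the lumbar region above it on all, lay 2.38 and 2.01 above their means in this embryo. The signal of *Hoxc10* was -2.36, -3.62, -4.49 and -3.35 in the WT father embryos and -3.42, -3.09, -1.18 and -3.99 in the HET father embryos. For *Hoxc10* the arrays with the most detected probes were the highest in their groups. Over the 12 posterior genes the median difference was 0.07 in WT father embryo 1 and 0.38 in WT father embryo 4. The part of the raised dim signals in the posterior genes was not tested.

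*Hox* genes were then compared between father groups, the question of the study being whether the father's *Eed* genotype alters expression in offspring. Of the 34 tested *Hox* genes, 0 differed by 2-fold or more with a Benjamini-Hochberg adjusted p under 0.01, the limits for a call, and 0% of all 33093 probes were called. The adjusted p was 1 for all 34 genes by limma. At an unadjusted p under 0.05 there were 2 genes, *Hoxb5* and *Hoxb7*, against 4.35% of all probes. *Hoxb5* was also the 1 gene whose groups did not overlap, which was so for 3.16% of all probes. For 23 of the 34 genes the 95% confidence interval of the difference lay within 2-fold in either direction, among them all 7 genes of groups 1 to 3. These intervals take the embryos as independent. The first part of the embryo code was shared only among 3 WT father embryos. With it as a random block, the correlation within a code was 0.54, a value that rests on that shared code. The SE of *Hoxa11* was then 0.68 in place of 0.44.

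*Hoxb5*, which acts in the forelimb field and the enteric nervous system, had the signals -0.22, -0.07, -0.19 and -0.11 in the WT father embryos and 0.12, 0.01, 0.00 and -0.02 in the HET father embryos. Every HET father embryo lay above every WT father embryo. The difference was small, 0.17 on the log2 scale (SE 0.07, 95% confidence interval 0.02 to 0.33, adjusted p of 1 by limma).

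*Hoxb7*, a spinal cord and kidney duct gene, had the signals 0.27, 0.50, 0.27 and 0.60 in the WT father embryos and 0.91, 0.69, 0.49 and 0.67 in the HET father embryos. The groups overlapped through HET father embryo 3. The difference was 0.28 (SE 0.12, 95% confidence interval 0.01 to 0.56, adjusted p of 1 by limma). *Hoxb6*, which lies between *Hoxb5* and *Hoxb7*, was 1.50 ± 0.15 (SD, n = 4) in the WT father and 1.75 ± 0.20 (SD, n = 4) in the HET father group. The neighbouring *Hoxb4* differed by 0.04, with a 95% confidence interval of -0.11 to 0.19. With each array shifted by its median in place of the 75th percentile, the differences were 0.07 for *Hoxb5* and 0.18 for *Hoxb7*, and this scaling moved the median of all tested probes to -0.10.

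**Figure D3:**
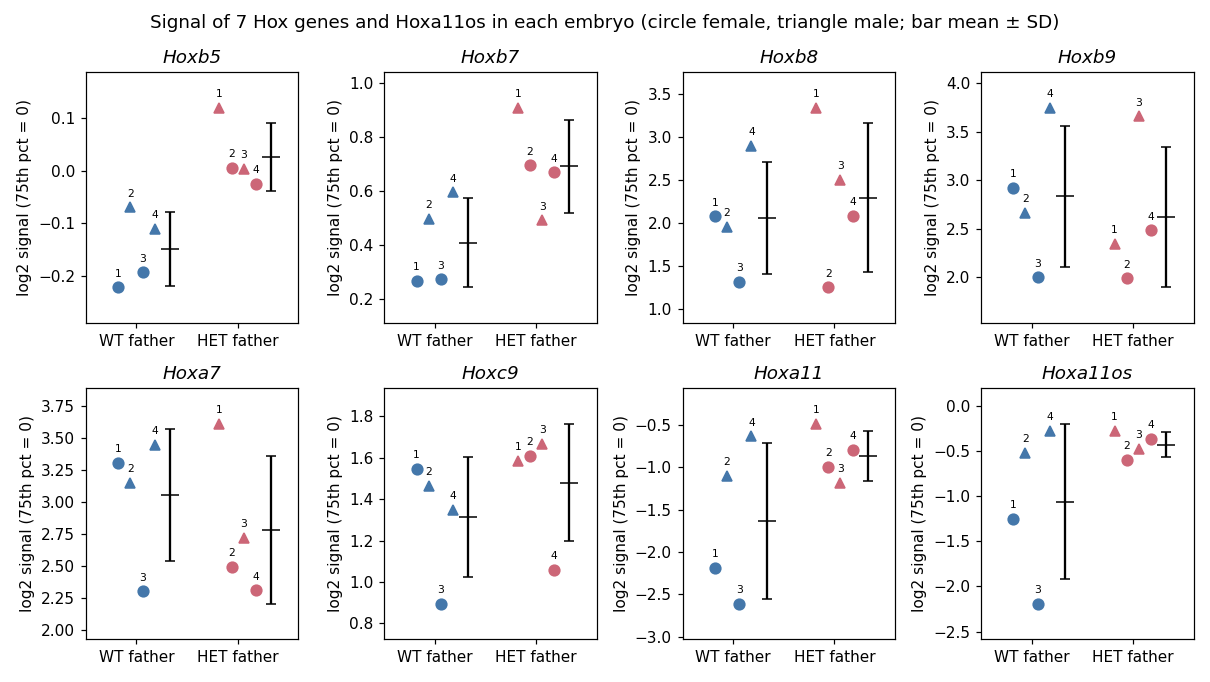
Log2 signal (y axis, 0 is the 75th percentile of the array) of 7 *Hox* genes and *Hoxa11os* in each embryo, numbered 1 to 4 within its father group on the x axis, circles for females and triangles for males, with group mean ± SD (n = 4) in black. The groups are apart for *Hoxb5* by a small step and overlap in the other panels, and the 2 female WT father embryos are low for *Hoxa11* and *Hoxa11os*.

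*Hoxa11*, which patterns the limb zeugopod and the uterus, had the signals -2.18, -1.10, -2.61 and -0.63 in the WT father embryos and -0.49, -1.0, -1.18 and -0.79 in the HET father embryos. *Hoxa11os*, the transcript of the opposite strand at this gene, had the signals -1.26, -0.52, -2.19 and -0.28 in the WT father embryos and -0.28, -0.60, -0.48 and -0.37 in the HET father embryos. In both transcripts WT father embryos 1 and 3, the females of that group, lay below all other embryos, and the groups overlapped. *Tbx4*, a hindlimb and allantois gene, was 0.06 and 0.10 in these 2 embryos and 1.94 to 2.52 in the others, with an interaction of father and sex at an unadjusted p of 0.00036 (adjusted p of 0.996 by limma). The mean of the 5 extraembryonic mesoderm and allantois markers lay 0.41 and 0.36 below the 8-embryo mean in WT father embryos 1 and 3. It lay between -0.03 and 0.25 in the others. *Tbx4* is among the 5 and made up most of the low means. For none of the other markers did both of these embryos lie below all the rest. *Hand1* was 2.53 and 2.70 in them and 2.60 to 3.22 in the others, and *Ahnak* 3.87 and 3.71 against 3.51 to 3.85. The part of these tissues in the *Hoxa11* values was not tested. The difference between father groups was 0.77 for *Hoxa11* (SE 0.44, 95% confidence interval -0.25 to 1.79) and 0.63 for *Hoxa11os* (SE 0.39, 95% confidence interval -0.29 to 1.55), with an adjusted p of 1 for both by limma. Without WT father embryo 3 the *Hoxa11* difference was 0.44. Of 13 noncoding transcripts named for the clusters in the table, *Hoxa11os* and *Hoxd3os1* matched array probes, and *Hoxd3os1* was above background on 3 arrays and was not tested.

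Other posterior genes differed by 0.5 or more without passing the test. *Hoxa13*, needed for the digits and the hindgut, was -4.38 ± 0.98 (SD, n = 4) in the WT father and -3.59 ± 0.95 (SD, n = 4) in the HET father group, a difference of 0.79 (SE 0.62). WT father embryo 3 was lowest (-5.73) and HET father embryo 3 highest (-2.25), and the other 6 embryos overlapped. Without WT father embryo 3 the *Hoxa13* difference was 0.33, without HET father embryo 3 it was 0.34, and with normexp and quantile normalization 0.38. *Hoxc11*, a hindlimb gene, differed by 0.58 (SE 0.38), from -4.59 ± 0.65 to -4.01 ± 0.51 (SD, n = 4 each). The *Hoxc11* difference was 0.37 without WT father embryo 3, 0.33 without HET father embryo 3 and 0.20 with normexp and quantile normalization. *Hoxc10* differed by 0.54 (SE 0.68), and its difference was -0.045 without HET father embryo 3, 0.19 without WT father embryo 3, 0.90 without WT father embryo 1 and 0.89 without HET father embryo 4.

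The sign of the difference was mostly the same across the clusters. In the HET father group 29 of the 34 genes had the higher mean and 5 the lower, against 49.9% higher over all tested probes. The genes share embryos and slides and are not independent. The median difference was 0.17 over the 34 genes, 0.17 for *Hoxa*, 0.16 for *Hoxb*, 0.14 for *Hoxc* and 0.18 for *Hoxd*. By paralogue band it was 0.03 for groups 1 to 3, 0.14 for groups 4 to 8 and 0.31 for groups 9 to 13, beside 0.00 over all tested probes. The medians of these 3 bands were 0.07, 0.06 and 0.14 without HET father embryo 3, and 0.02, 0.08 and 0.18 without WT father embryo 3. By cluster, the *Hoxb* median was 0.027 without WT father embryo 3 and the *Hoxd* median 0.033 without HET father embryo 3. Without HET father embryo 3, 23 genes were higher and 11 lower, and without WT father embryo 3, 24 and 10. With arrays shifted by their medians the bands were at -0.07, 0.04 and 0.21, the split became 21 higher and 13 lower, and the median of the 34 genes was 0.06 beside -0.10 for all probes. Without WT father embryo 1 and HET father embryo 3, 25 of 33 tested genes were higher and the median was 0.10.

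**Figure D4:**
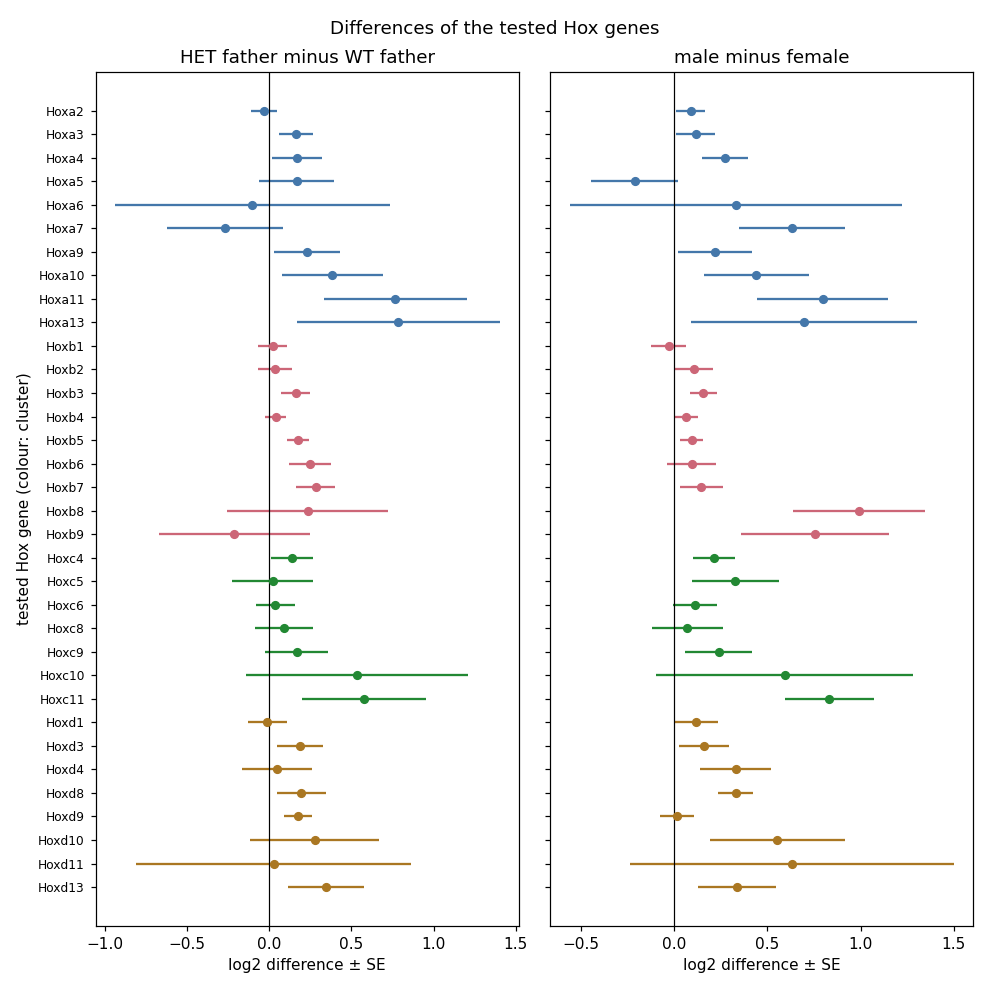
Log2 difference ± SE of the 34 tested *Hox* genes, HET father minus WT father on the left and male minus female on the right, ordered by cluster and paralogue number with 1 colour per cluster. Most points lie right of 0 in both panels (29 of 34 on the left, 32 of 34 on the right). The SE is largest for *Hoxa6* and *Hoxd11* in both panels and does not rise steadily with paralogue number.

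Male and female embryos were compared with the father group as a covariate, since each group held both sexes. Of the 34 tested *Hox* genes, 0 were called, against 0.0332% of all probes. At an unadjusted p under 0.05 there were 3, *Hoxb8*, *Hoxc11* and *Hoxd8*, against 3.27% of all probes. All 3 had the higher mean in males, and each had an adjusted p of 1 by limma. *Hoxd8*, a trunk gene, was -1.0 and -0.88 in the WT father males, -0.66 and -0.86 in the HET father males, -1.14 and -1.43 in the WT father females and -1.04 and -1.10 in the HET father females. It was the 1 *Hox* gene whose sexes did not overlap, which was so for 2.58% of all probes. Males exceeded females by 0.33 for *Hoxd8* (SE 0.09), by 0.83 for *Hoxc11* (SE 0.24) and by 0.99 for *Hoxb8* (SE 0.35).

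Across the clusters, 32 of the 34 genes had the higher mean in males, *Hoxa5* and *Hoxb1* being the exceptions, and over all tested probes 55.1% did. The median difference between sexes was 0.12 for groups 1 to 3, 0.21 for groups 4 to 8 and 0.57 for groups 9 to 13, beside 0.02 over all tested probes. With arrays shifted by their medians 22 genes were higher and 12 lower in males, none of them at an unadjusted p under 0.05, and the median over all probes was -0.13. WT father embryo 3, the lowest for most posterior genes, is female, and HET father embryo 3, the highest, is male. Without WT father embryo 3, the median over the 34 genes was 0.17 in place of 0.23. Without HET father embryo 3 it was 0.15.

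For the interaction of father's genotype and sex, 0 of the 34 genes were called, as were 0% of all probes. *Hoxa11* was the 1 gene at an unadjusted p under 0.05, against 2.22% of all probes, with an interaction of -1.47 and an adjusted p of 0.996 by limma. The low females of the WT father group, given above, are the values behind it.

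Genes that work with, above or below the *Hox* genes were taken from lists of related genes. At an unadjusted p under 0.05 stood 4.35% of all probes, the share against which the counts for these lists are to be read. Among the homeodomain cofactors of the PBX, MEIS and PKNOX families, 1 of 9 tested genes had an unadjusted p under 0.05, *Meis3*, with a difference of 0.19. Among regulators of *Hox* transcription it was 1 of 17, the retinoid receptor gene *Rxra* (0.18). The caudal genes *Cdx1*, *Cdx2* and *Cdx4* had differences of -0.16, -0.18 and -0.20. Among chromatin regulators of the clusters it was 1 of 22, *Wdr5*, a subunit of H3K4 methyltransferase complexes (0.22). *Eed* itself differed by -0.11 (SE 0.06), and its partners *Ezh2* and *Suz12* by 0.03 and 0.04. None of 5 tested homeobox neighbours and ParaHox genes (among them *Evx1*, at the end of the *Hoxa* cluster, 0.04) and none of 11 targets and effectors passed that limit, and no gene of these lists was called by limma.

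Markers of other tissues were read beside these values. Of 6 trophoblast and decidua markers 4 were tested, and all 4 had the lower mean in the HET father group. The difference was small for *Gcm1* (-0.06) and *Ascl2* (-0.05), and was -0.91 for *Prl3d1* (SE 0.75). The mean of the 4 markers lay 0.25 to 0.82 above the 8-embryo mean in the WT father embryos. In the HET father embryos it lay between -1.46 and 0.21, lowest in HET father embryo 3. In that embryo *Prl3d1* and *Prl8a2* had their lowest signal of the 8, whereas *Gcm1* and *Ascl2* did not. *Prl8a2*, a prolactin family gene of the decidua, differed by -2.46 with an unadjusted p of 0.013 (adjusted p of 1 by limma), and its groups did not overlap. All 6 tested forebrain and midbrain markers and all 5 primitive erythroid markers had the higher mean in the HET father group, with medians of 0.11 and 0.18. In WT father embryo 4 the mean difference of the erythroid markers from the 8-embryo mean was -0.96, against -0.05 to 0.42 in the others. That embryo was the lowest of the 8 for all 5 erythroid markers. The higher HET father means of *Hbb-y*, *Hba-x* and *Gata1* depend on it. The median was 0.15 over the 5 extraembryonic mesoderm and allantois markers, 3 of them higher, and *Tbx4* differed by 0.93. Of 9 tail bud and presomitic mesoderm markers, 7 had the lower and 2 the higher mean in the HET father group, with a median of -0.10. An unadjusted p under 0.05 was found for 2 of the 9, *Lfng* (-0.25) and *Dll1* (-0.24), against 4.35% of all probes. The posterior *Hox* genes had a positive median difference. All 6 heart markers lay within -0.08 to 0.13. The medians of the neural tube, somite and visceral yolk sac endoderm markers were -0.01, -0.01 and -0.02. Of the 6 tested somite markers, 1 had an unadjusted p under 0.05 by limma, *Pax3* (-0.22). The yolk sac markers, 3 higher and 4 lower, ran from -0.44 (*Apoa4*) to 0.06, and their mean was lowest in WT father embryo 4 (-0.34). The part of these tissues in the *Hox* differences was not tested.

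The 3 genes with more than 1 probe were *Hoxa9*, *Hoxa13* and *Hoxb3*. The tested probe pairs of *Hoxa9* (0.23 and -0.09) and *Hoxb3* (0.16 and -0.08) differed in sign by less than 0.5. The second *Hoxa13* probe was above background on 3 arrays and was not tested. Means of the tested probes of each gene gave the same 2 genes at an unadjusted p under 0.05.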

How the data were processed

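RNA of 8 single E8.5 embryos, 4 per father group, was hybridised to Agilent 8x60K arrays. Spots were read by the authors with Agilent Feature Extraction (version 11.0.1.1). Each deposited intensity had its background subtracted and was not yet scaled between arrays. The table of the whole series holds the same deposited intensity rounded, within 0.497%, and served as an alternative. The array's probe intervals are on mm9.

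The log2 intensity was shifted by each array's 75th percentile, without control or outlier spots, and a probe's spots were averaged. Probes well above background on fewer than 4 arrays or in the lowest 20% were not tested. The fits were made in limma 3.58.1 (R 4.3.3, data.table version 1.17.8), with sex tested beside father group. Calls needed a difference of 2-fold or more and an adjusted p (Benjamini-Hochberg) under 0.01. The fit was tested on simulated data. Of 28685 probes with a RefSeq accession 27235 were named through a GRCm38.p6 table. Python 3.11.15, pandas 2.3.3, numpy 2.4.6 and matplotlib 3.10.9 made tables and figures.

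The members, gene lists and tests were chosen with earlier results of these data known. By rule, full values were given for members whose groups did not overlap, at an unadjusted p under 0.05, differing by 0.5 or more, or with probes differing in sign by over 0.5, and for noncoding transcripts named for the clusters. *Hoxb4*, *Hoxa7*, *Hoxb8*, *Hoxb9*, *Hoxd8* and *Hoxb6* were shown for their spread, sex difference or position after their values were seen. The fits were repeated after normexp (offset 50) with quantile normalization, with 2 other scalings, the series table, 2 filters, sex, replicate number or embryo code in the fit, array weights, probe means, another threshold and each embryo left out. Normexp used the median spot signal, the column the files hold.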

Additional observations from a re-analysis of the deposited data

Results flagged for a closer look

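In 68 groups of 4 embryos (34 *Hox* genes in 2 father groups), 3 held an embryo that stood apart, and chance alone flags about 1 in 20 groups. The gap to the nearest embryo was 0.869 of the range for *Hoxc9* in the HET father group, where embryo 4 read 1.06 and the others 1.59 to 1.67. It was 0.883 for *Hoxd1* in the WT father group, where embryo 4 read 0.42 and the others 0.02 to 0.07. It was 0.882 for *Hoxd10* in the HET father group, where embryo 3 read -3.17 and the others -4.69 to -4.51.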

How the results depend on the processing

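No *Hox* gene was called between father groups, between sexes or in their interaction under any alternative run, an adjusted p under 0.05 with no fold limit for father groups included. In the interaction with 1 embryo left out, the lone embryo of its cell was assumed to vary like the others. The number of *Hox* genes at an unadjusted p under 0.05 between father groups, 2 in the reported fit, was 3 with normexp and quantile normalization, with sex as a covariate and with array weights. It was 0 with the median shift, with no filter and with a random block for the first part of the embryo code, and 1 when WT father embryo 1 and HET father embryo 3 were left out together, an alternative chosen after seeing the data. With the replicate number as a block (replicate block) it was also 0. Same-numbered embryos share only a number, their deviations correlating at -0.59 to -0.05 with no embryo closest to its own number. With 1 embryo left out the count lay between 0 and 8, reaching 8 without WT father embryo 4 and 5 without HET father embryo 4. It was 0 without WT father embryo 1, WT father embryo 3 or HET father embryo 2, and 1 without WT father embryo 2 or HET father embryo 1. The median difference over the tested *Hox* genes stayed between 0.06 and 0.23 under the alternatives run. With 1 embryo left out *Hoxc10* lay between -0.045 and 0.90, reversing without HET father embryo 3, and the cause was not tested. Between sexes the count at an unadjusted p under 0.05, 3 in the reported fit, lay between 0 and 11, highest with the random block for the code. The number of genes above background on all arrays, 31, became 34 with the positive and significant flag or on at least 4 arrays. Dim posterior probes limit these comparisons, as does the slide that each father group had to itself.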
